A study of Mus musculus with 42 samples.

Results

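The integrated stress response and the unfolded protein response were followed here through 10 genes, chosen by name: Atf4, Ddit3, Atf3, Xbp1, Trib3, Chac1, Sesn2, Psat1, Phgdh and Hspa5. All 10 were found by symbol among the 24225 genes of the table, and all 10 passed the filter on low values. In the integrated stress response, kinases that sense amino acid shortage, misfolded protein in the endoplasmic reticulum (ER), haem shortage or double-stranded RNA phosphorylate the translation factor eIF2alpha. General translation then slows while translation of ATF4 increases, and ATF4 raises genes of amino acid synthesis, transport and redox balance. The unfolded protein response adds the sensors IRE1, which splices the Xbp1 messenger, and ATF6, and raises ER chaperones and the machinery that degrades misfolded proteins. Cells that secrete large amounts of protein use the XBP1 arm during normal development.

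Messenger RNA was sequenced in 42 libraries from 4 mouse embryonic stem cell (ESC) lines on the C57Bl/6 background, to ask how the loss of AMPK, a kinase that responds to low cellular energy, affects differentiation. W1 and W2 were wild type (WT, 22 libraries), and K1 and K3 were AMPK DKO (20 libraries), each a single line. ESC (day 0) and embryoid bodies of days 2, 4, 8 and 12, aggregates formed without leukaemia inhibitory factor, were collected, in 25 mM glucose (HG) or 2.5 mM glucose (LG). All ESC had been grown on irradiated DR4 feeder cells and passaged without them before use, and nothing said whether libraries of a line came from separate cultures.

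A part of the headings went against the RNA. In 9 libraries Prkaa2, an AMPK catalytic subunit transcript, lay on the other side of 1 RPKM (reads scaled by transcript length and by mapped reads) than the heading's genotype required. Line-specific transcripts or Txnip, a glucose-induced transcript, contradicted the heading in 18 libraries, 15 by line and 8 by Txnip. No library was moved to another group. The comparisons used the 24 label-matched libraries, 13 WT and 11 DKO, and the fit with all 42 libraries under their headings ("as labelled") is given beside them. In that fit the WT LG arms of days 8 and 12 also held libraries labelled W2 with 0.416 and 0.04 RPKM of Prkaa2 and 65.2 and 190 of Txnip. As-labelled values that use these arms therefore do not bear on WT against DKO. The as-labelled DKO HG arms of days 8 and 12 held libraries labelled K1 that line-specific transcripts contradicted. In the 24, Prkaa2 lay between 1.32 and 22.3 RPKM in WT and between 0.019 and 0.959 RPKM in DKO. This left W1 alone for WT in LG on days 8 and 12, K3 alone for DKO in HG on those days, and K1 alone for ESC. Depth ran from 10500000 to 25500000 reads, with a median of 15400000.

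The promoters of 4 genes are shown because they hold the sequence elements through which ATF4 and CHOP, or ATF6 and XBP1, are known to act. The windows reach from 250 bases before to 50 bases after the start (RefSeq, GRCm38.p6), and the start was that of the deposited mm10 transcript for all 10 genes. Capitals mark a C/EBP-ATF element (TGATGNAA, bound by ATF4 or CHOP with C/EBP partners, searched on both strands) in Chac1, Atf3 and Trib3, where it lies on the strand opposite to the one printed. In Hspa5 they mark an ER stress element (CCAAT and, 9 bases after it, CCACG, recognised by ATF6 and XBP1 together with NF-Y).
Hspa5: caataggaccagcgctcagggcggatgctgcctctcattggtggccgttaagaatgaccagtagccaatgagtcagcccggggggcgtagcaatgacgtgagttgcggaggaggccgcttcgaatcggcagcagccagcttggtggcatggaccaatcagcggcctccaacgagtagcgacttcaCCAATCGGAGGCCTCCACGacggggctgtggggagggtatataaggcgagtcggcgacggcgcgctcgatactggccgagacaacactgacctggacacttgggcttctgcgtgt
Chac1: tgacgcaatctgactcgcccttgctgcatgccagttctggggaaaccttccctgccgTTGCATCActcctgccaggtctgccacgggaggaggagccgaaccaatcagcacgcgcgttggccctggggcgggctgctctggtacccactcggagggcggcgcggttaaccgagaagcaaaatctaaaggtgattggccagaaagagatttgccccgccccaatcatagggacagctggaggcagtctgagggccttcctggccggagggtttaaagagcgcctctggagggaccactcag
Atf3: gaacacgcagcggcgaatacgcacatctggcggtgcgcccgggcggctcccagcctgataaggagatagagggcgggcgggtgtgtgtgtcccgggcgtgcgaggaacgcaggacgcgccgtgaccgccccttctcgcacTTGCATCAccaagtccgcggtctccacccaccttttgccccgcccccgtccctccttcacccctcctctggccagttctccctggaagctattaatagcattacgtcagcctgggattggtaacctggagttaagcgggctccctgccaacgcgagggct
Trib3: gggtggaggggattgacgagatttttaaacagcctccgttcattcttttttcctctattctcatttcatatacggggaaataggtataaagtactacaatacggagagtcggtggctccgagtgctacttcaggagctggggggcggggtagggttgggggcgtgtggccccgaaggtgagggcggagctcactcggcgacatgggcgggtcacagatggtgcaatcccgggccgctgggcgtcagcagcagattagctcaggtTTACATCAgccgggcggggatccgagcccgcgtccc
The windows are chr2:34771840-34772139 (plus strand) for Hspa5, chr2:119350992-119351291 (plus strand) for Chac1, chr1:191183284-191183583 (minus strand) for Atf3 and chr2:152344011-152344310 (minus strand) for Trib3. The element began at position -65 from the start in Hspa5, at -193 in Chac1, at -110 in Atf3 and at 15 in Trib3. The C/EBP-ATF letters stood in 3 of the 10 windows and in 3.97% of 32851 mouse promoter windows of the same length, and the full ER stress element in 1 of the 10 and in 0.119%. TGACGTGG, the element of the unfolded protein response, and TGACGTCA, the cAMP response element, were in 0 of the 10 windows and in 0.676% and 1.79% of all. A match is a description of the letters only.

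In mm10 the genes lie at chr15:80255184-80257545 (Atf4), chr10:127290793-127296288 (Ddit3), chr1:191170297-191183333 (Atf3), chr11:5520641-5525993 (Xbp1), chr2:152337425-152344060 (Trib3), chr2:119351242-119354327 (Chac1), chr4:132492807-132510456 (Sesn2), chr19:15905123-15925059 (Psat1), chr3:98313171-98339969 (Phgdh) and chr2:34772090-34776529 (Hspa5). Levels per transcript length differed widely between the genes. Over the 24 libraries the median was 352 RPKM for Hspa5, 193 for Atf4, 149 for Psat1, 42.2 for Xbp1, 34.2 for Sesn2, 22.6 for Ddit3, 22.2 for Phgdh, 11.7 for Trib3, 7.305 for Chac1 and 5.89 for Atf3. Atf3 had the widest range, 1.48 to 23.9 RPKM, and Psat1, Hspa5, Sesn2 and Atf4 the narrowest, at 2.69, 2.69, 2.88 and 3.20 times between lowest and highest. Ddit3 shares 68 exonic bases with Mars and 13 with Gm4189 on the opposite strand, and since the libraries did not mark strand, those reads cannot be told apart. No other of the 10 genes shared exonic bases with another gene.

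**Figure D1:**
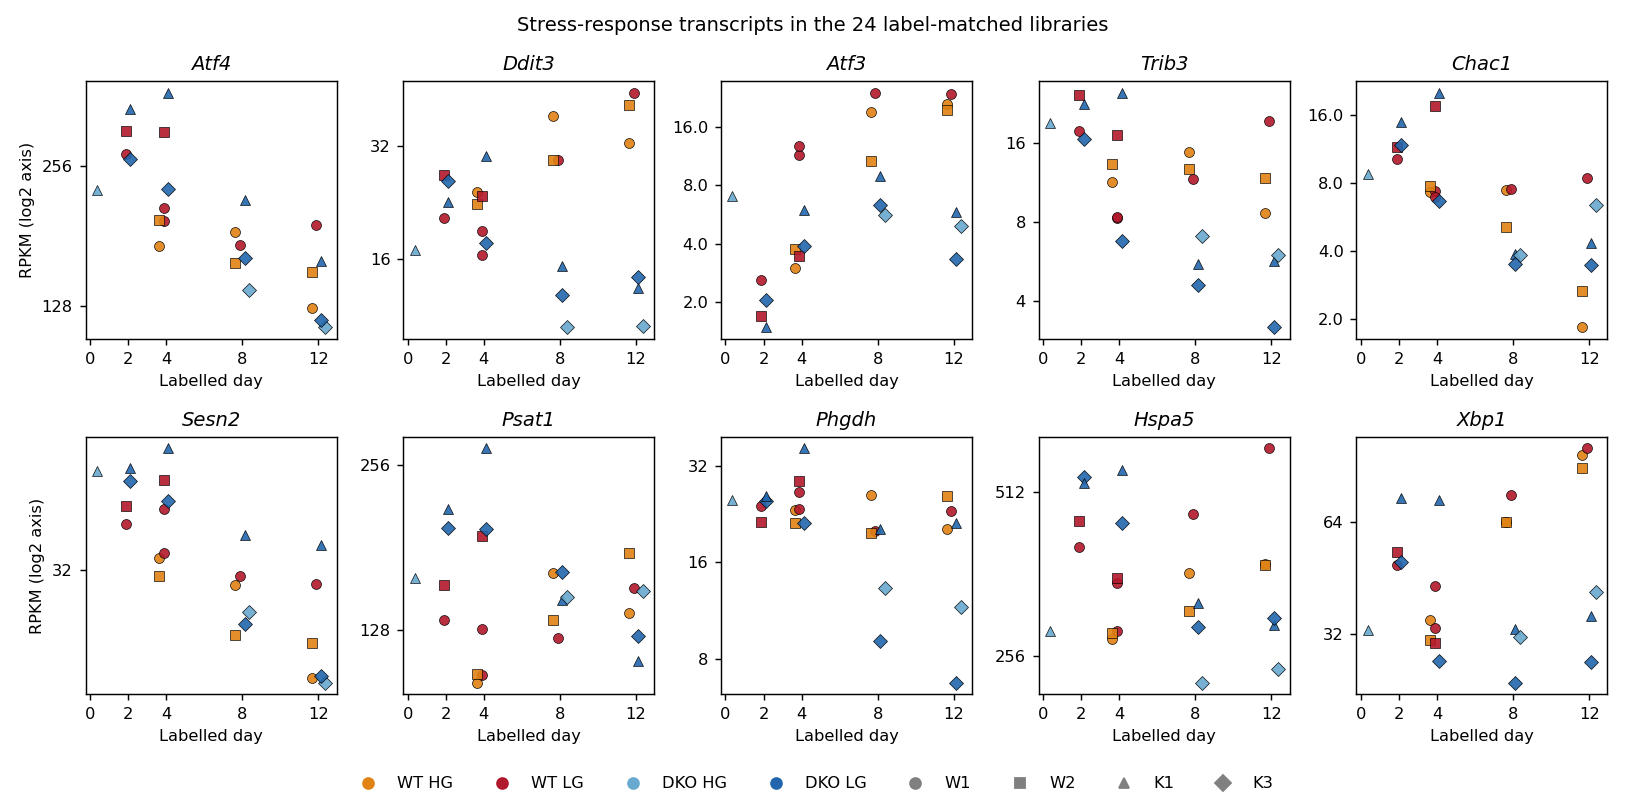
RPKM (log2 axis) of the 10 genes against the labelled day in the 24 label-matched libraries, with colour for genotype and glucose and marker shape for line. On day 12, Ddit3, Xbp1 and Atf3 lie higher in all 3 WT libraries (Ddit3 32.6 to 44.3 RPKM) than in all 3 DKO libraries (10.6 to 14.3 RPKM).

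The genotypes differed little in these transcripts in early low-glucose embryoid bodies and in up to 5 of the 10 genes in late ones. In LG, 0 of the 10 genes passed the limma test between DKO and WT on day 2 (0.150% of 14670 genes called; Hspa5 and Psat1 had an unadjusted p under 0.05). On day 4, 1 of 10 was higher in DKO (0.382% of genes higher), on day 8 3 of 10 were lower (11.0% of genes higher and 7.94% lower) and on day 12 5 of 10 were lower (22.3% of genes higher and 13.0% lower). In HG, 2 of 10 were lower on day 8 (7.38% of genes lower) and 3 of 10 on day 12 (20.2% of genes higher and 12.0% lower). Scaled by median ratios between libraries, 6.57% of genes were higher and 10.4% lower in DKO on LG day 8, 16.5% and 16.7% on LG day 12, and 14.3% and 15.8% on HG day 12. The median over all genes on LG day 12 was then 0.049 on the log2 scale, against 0.158 without this scaling. As labelled, by limma, 0 of the 10 passed on LG days 2 and 4 (0.00% of genes called on each), LG day 8 (0.349%) and HG day 8 (0.0134%), 2 were lower on LG day 12 (0.483% of genes lower) and 1 was higher on HG day 12 (1.46% of genes higher).

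Atf4 encodes the central transcription factor of the integrated stress response and is controlled mainly by translation, so its messenger is only a part of its activity. In LG it stood on day 2 at 272 RPKM in W1, 305 in W2, 340 in K1 and 266 in K3, and on day 12 at 191 in W1, 160 in K1 and 119 in K3. In HG on day 12 it stood at 126 RPKM in W1, 152 in W2 and 115 in K3. The genotypes overlapped on day 2, and late LG libraries were lower than LG day 2 libraries in W1, K1 and K3. W2 was lower late as well, but its late label-matched libraries were all HG, so day and glucose cannot be told apart there. The fall from day 2 to day 12 passed the test in DKO LG, at -1.12 ± 0.26 (SE, log2(RPKM + 1) scale, adjusted p = 0.00323), while WT LG stood at -0.59 ± 0.31 (adjusted p = 0.134). The DKO minus WT values for Atf4 passed in none of the 6 conditions tested, with -0.47 on LG day 12 (adjusted p = 0.269). The difference between the day changes of DKO and WT was -0.53 ± 0.41 (adjusted p = 0.384).

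Ddit3 encodes CHOP, a transcription factor induced by ATF4 that promotes cell death under lasting ER stress. In LG on day 2 it stood at 20.6 RPKM in W1, 26.7 in W2, 22.7 in K1 and 25.8 in K3, so that the genotypes overlapped. On LG day 8 it stood at 29.4 RPKM in W1, 15.3 in K1 and 12.8 in K3, and on LG day 12 at 44.3 in W1, 13.4 in K1 and 14.3 in K3. In HG it stood at 38.4 RPKM in W1, 29.4 in W2 and 10.6 in K3 on day 8, and at 32.6, 41.1 and 10.6 RPKM in the same lines on day 12. No late DKO library reached the lowest late WT library in either glucose level. Ddit3 was lower in DKO by limma on LG day 8 (-1.01 ± 0.29, adjusted p = 0.0299), LG day 12 (-1.61 ± 0.29, adjusted p = 0.0016), HG day 8 (-1.58 ± 0.29, adjusted p = 0.00739) and HG day 12 (-1.69 ± 0.29, adjusted p = 0.00164). As labelled, the limma value on LG day 12 was -1.07 (adjusted p = 0.305) and on HG day 12 -1.10 (adjusted p = 0.179). The WT LG arm then held the contradicted library labelled W2 LG day 12, and the DKO HG arm that labelled K1 HG day 12.

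Atf3, an early-response repressor downstream of ATF4, was lowest on day 2 and highest in late WT embryoid bodies among the 24 libraries. It stood at 6.99 RPKM in the library labelled K1 ESC, whose day was not checked. At LG day 2 it stood at 2.60 RPKM in W1, 1.70 in W2, 1.48 in K1 and 2.05 in K3. On LG day 12 it stood at 23.6 RPKM in W1, 5.84 in K1 and 3.34 in K3, and in HG on day 12 at 20.96 in W1, 19.5 in W2 and 4.95 in K3. The 3 WT libraries of day 12 all lay above the 3 DKO libraries, and on day 8 the lowest WT library (W2 HG, 10.7 RPKM) lay above the highest DKO library (K1 LG, 8.95 RPKM). The difference passed on LG day 12 (-2.17 ± 0.53, adjusted p = 0.00785) and on HG day 12 (-1.84 ± 0.53, adjusted p = 0.0205), and on LG day 8 stood at -1.55 ± 0.53 (adjusted p = 0.058). On day 4, Atf3 also stood apart between the WT lines in LG, at 11.4 and 12.7 RPKM in the W1 libraries against 3.46 RPKM in W2. As labelled the limma value on LG day 12 was -0.31 (adjusted p = 0.915), with the contradicted library labelled W2 LG day 12 in the WT arm.

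Xbp1, whose spliced messenger encodes the transcription factor of the IRE1 arm, had the same order; RPKM per gene do not separate the spliced from the unspliced form. Its LG day 2 levels were 49.1 RPKM in W1, 53.3 in W2, 74.2 in K1 and 50.2 in K3. On LG day 8 it stood at 75.7 RPKM in W1, 32.98 in K1 and 23.7 in K3, and on LG day 12 at 101 in W1, 35.9 in K1 and 26.9 in K3. WT libraries were thus above DKO libraries on both late days, while on day 2 the lines W1, W2 and K3 lay close together and K1 above them. The DKO minus WT difference was -1.41 ± 0.43 on LG day 8 (adjusted p = 0.0396) and -1.67 ± 0.43 on LG day 12 (adjusted p = 0.0103). In HG on day 12 the levels were 96.8 RPKM in W1, 89.5 in W2 and 41.5 in K3, with a difference of -1.15 ± 0.43 that did not pass (adjusted p = 0.0576). As labelled, Xbp1 stood by limma at -1.14 on LG day 12 (adjusted p = 0.242), with the contradicted library labelled W2 LG day 12 in the WT arm.

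Hspa5 encodes BiP, the main ER chaperone of the HSP70 family and the standard readout of the unfolded protein response. Its levels on LG day 2 were 406 RPKM in W1, 454 in W2, 532 in K1 and 546 in K3, and on LG day 4 at 285 and 348 in the W1 libraries, 357 in W2, 561 in K1 and 450 in K3. On LG day 8 it stood at 466 RPKM in W1, 320 in K1 and 289 in K3, and on LG day 12 at 615 in W1, 291 in K1 and 301 in K3. DKO libraries thus lay above all WT libraries on days 2 and 4 and below W1 on days 8 and 12. The difference passed in DKO's favour on LG day 4 (0.58 ± 0.13, adjusted p = 0.0439) and against it on LG day 8 (-0.61 ± 0.16, adjusted p = 0.0196) and LG day 12 (-1.05 ± 0.16, adjusted p = 0.00056). On day 2 it was 0.33 ± 0.13 (adjusted p = 0.656). In HG on day 8 Hspa5 stood at 364 RPKM in W1, 309 in W2 and 229 in K3, and on day 12 at 378, 376 and 242 RPKM. WT lay above K3 on both days, by limma at -0.55 ± 0.16 on day 8 (adjusted p = 0.0348) and -0.64 ± 0.16 on day 12 (adjusted p = 0.0099). As labelled the limma value on LG day 12 was -0.40 (adjusted p = 0.658), with the contradicted library labelled W2 LG day 12 in the WT arm.

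Trib3, a pseudokinase induced by ATF4 and CHOP that feeds back on them, fell in DKO. On LG day 2 it stood at 17.7 RPKM in W1, 24.3 in W2, 22.4 in K1 and 16.5 in K3, and on LG day 12 at 19.3 in W1, 5.66 in K1 and 3.17 in K3. In HG on day 12 it stood at 8.63 RPKM in W1, 11.7 in W2 and 5.97 in K3. The genotypes were interleaved on day 2 and separate on day 12 in both glucose levels. The DKO minus WT difference passed on LG day 12 (-1.95 ± 0.57, adjusted p = 0.02) but not on HG day 12 (-0.67 ± 0.57, adjusted p = 0.392). As labelled, the LG day 12 value was -1.63 (adjusted p = 0.0303). There the WT arm also held the library labelled W2 LG day 12, with 0.04 RPKM of Prkaa2 and 190 of Txnip. That as-labelled value therefore does not bear on WT against DKO. The fall from day 2 to day 12 in DKO LG was -1.94 ± 0.47 (adjusted p = 0.00421), against -0.10 ± 0.57 in WT LG (adjusted p = 0.901).

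Chac1, an ATF4 target that degrades glutathione, was lower in K3 than in WT on HG day 8 and higher on HG day 12. On LG day 2 it stood at 10.2 RPKM in W1, 11.5 in W2, 14.9 in K1 and 11.8 in K3, and on LG day 12 at 8.39 in W1, 4.35 in K1 and 3.47 in K3. In HG it stood on day 8 at 7.48 RPKM in W1, 5.13 in W2 and 3.85 in K3, and on day 12 at 1.84, 2.67 and 6.40 RPKM in the same lines. WT thus lay above DKO on day 12 in LG and below it in HG. The DKO minus WT value was -0.94 ± 0.52 on LG day 12 (adjusted p = 0.175; as labelled -1.07, adjusted p = 0.0468) and 1.20 ± 0.52 on HG day 12 (adjusted p = 0.0945; as labelled 1.25, adjusted p = 0.0315). Low against high glucose in WT on day 12 gave 1.54 ± 0.52 (adjusted p = 0.127; as labelled 1.67, adjusted p = 0.00859). The difference between the glucose changes of DKO and WT on day 12, a comparison chosen after seeing the data, was -2.14 ± 0.73 (adjusted p = 0.335, 0.375% of genes called) and -2.31 as labelled (adjusted p = 0.0275, 0.00671% of genes lower). Chac1 thus passed in none of these comparisons among the label-matched libraries. The as-labelled WT LG day 12 arm held the library labelled W2 LG day 12 (0.04 RPKM of Prkaa2, 190 of Txnip). As-labelled values that use this arm therefore do not bear on WT in LG. The as-labelled HG day 12 arm of DKO held the library labelled K1 HG day 12, whose line-specific transcripts were those of K3. That library had 381 RPKM of Pou5f1, a pluripotency factor, and 0 of Afp, a visceral endoderm marker, against 67.2 and 193 in K3 HG day 12. Its day is thus in doubt as well.

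Sesn2, a stress-induced inhibitor of mTORC1 that binds leucine, and the serine synthesis enzymes Psat1 and Phgdh did not pass between the genotypes in any of the 6 conditions. Sesn2 ran between 39.4 and 50.9 RPKM over the 4 lines on LG day 2 and stood at 30.0 in W1, 35.9 in K1 and 19.8 in K3 on LG day 12. Psat1, the phosphoserine aminotransferase, stood on LG day 2 at 133 RPKM in W1, 154 in W2, 213 in K1 and 196 in K3, and on LG day 12 at 152 in W1, 112 in K1 and 124 in K3. DKO thus lay above WT on day 2 (0.51 ± 0.22, adjusted p = 0.716) and below W1 on day 12 (-0.36 ± 0.27, adjusted p = 0.318). Phgdh, the first enzyme of serine synthesis, divided the DKO lines rather than the genotypes. In LG it stood in K3 at 24.8, 21.2, 9.05 and 6.72 RPKM on days 2, 4, 8 and 12, and in K1 at 25.8, 36.3, 20.3 and 21.3 RPKM. K3 in HG also had 13.3 RPKM on day 8 and 11.6 on day 12, and the 13 WT libraries ran from 19.7 to 28.8 RPKM. Late K3 was below every other label-matched library, in both glucose levels. Without K1 the DKO minus WT value of Phgdh was -1.64 on LG day 12 (limma, adjusted p = 0.00129), which then describes K3 against W1.

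**Figure D2:**
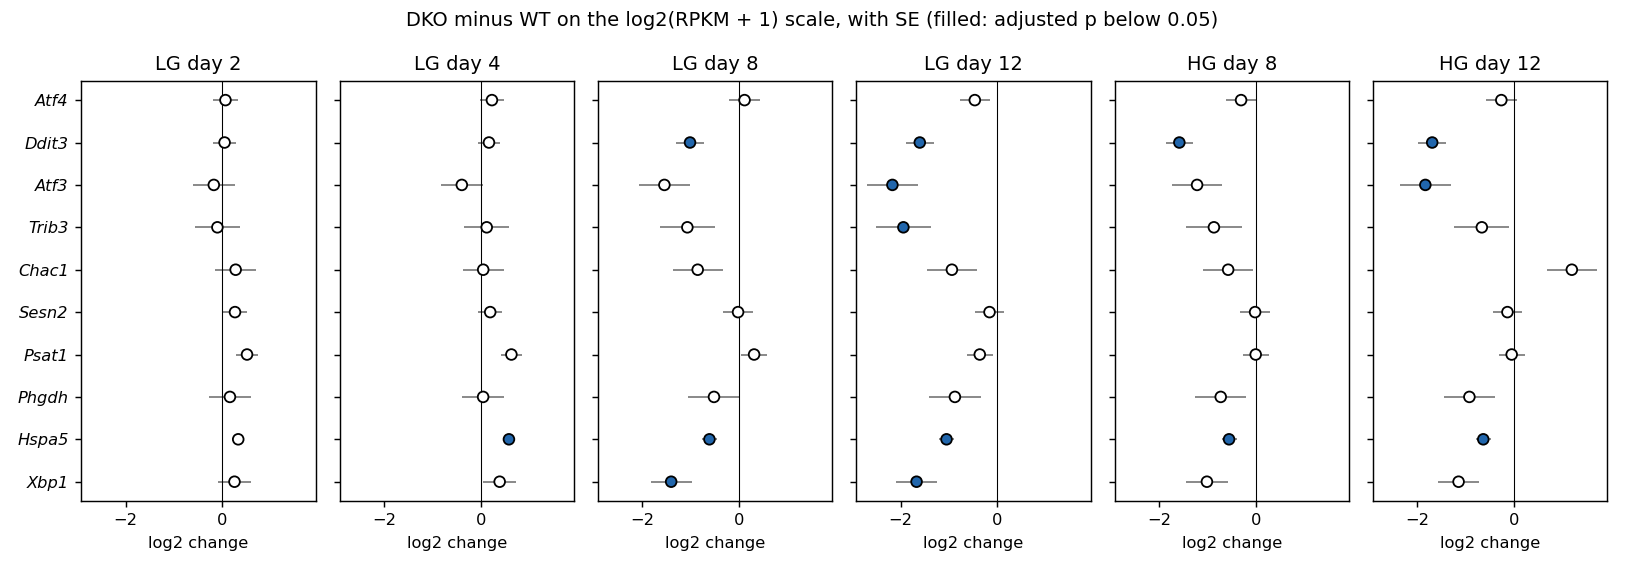
DKO minus WT difference of the 10 genes on the log2(RPKM + 1) scale in 6 conditions, with the limma SE as bars and filled points for an adjusted p below 0.05. Hspa5 is at 0.58 on LG day 4 and at -1.05 on LG day 12, and Chac1 at 1.20 on HG day 12.

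These genotype comparisons have 2 limits. W1 was the only WT library on LG days 8 and 12 and K3 the only DKO library in HG, so line and genotype cannot be told apart there. Without W2, which on LG days 8 and 12 enters only through the shared spread, 3 of the 5 calls of LG day 12 passed (Trib3 at adjusted p = 0.091 and Xbp1 at 0.087 did not) and 0 of the 3 of LG day 8, with Hspa5 at adjusted p = 0.122. Without K3 the LG day 12 count was 4, with Atf3 at adjusted p = 0.0555, and LG day 4 held 2, Hspa5 and Xbp1. LG day 8 then held 2, with Ddit3 at adjusted p = 0.0528. Without K1 it was 6 on LG day 12, 4 on LG day 8 and HG day 8, 5 on HG day 12 and 0 on LG day 4. HG day 8 held 0 calls without W1 and 0 without W2, and HG day 12 held 1, Ddit3, without W1 and 0 without W2. The LG day 4 call of Hspa5 was lost without W1, without W2 and without K1.

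Along the time course 3 of the 10 genes rose in WT and 8 fell in DKO. From day 2 to day 12 in LG, 3 of the 10 were higher in WT (30.0% of genes higher): Atf3 by 2.98 ± 0.53 (adjusted p = 0.000489), Ddit3 by 0.89 ± 0.29 (adjusted p = 0.0194) and Hspa5 by 0.52 ± 0.16 (adjusted p = 0.0135). In DKO 8 of the 10 were lower and 0 higher (33.4% of genes higher and 17.5% lower, or 26.4% and 25.9% after median-ratio scaling). The DKO falls were -0.86 ± 0.13 for Hspa5 (adjusted p = 0.000146), -1.55 ± 0.42 for Chac1 (adjusted p = 0.00886), -0.78 ± 0.22 for Psat1 (adjusted p = 0.0106), -0.86 ± 0.25 for Sesn2 (adjusted p = 0.0126), -0.76 ± 0.23 for Ddit3 (adjusted p = 0.0163) and -0.95 ± 0.35 for Xbp1 (adjusted p = 0.0374), besides those of Atf4 and Trib3 given above. Atf3 stood at 0.98 ± 0.43 in DKO (adjusted p = 0.0735) and Phgdh at -1.003 ± 0.43 (adjusted p = 0.072). As labelled, 0 of the 10 passed in WT (0.778% of genes called) and 3 were lower in DKO (3.69% of genes lower), namely Atf4, Trib3 and Chac1. Without W2 the WT count was 1, Atf3. Leaving out any line kept the DKO count between 6 and 8, of which 1 was a rise, of Atf3, without W1 and without W2.

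The day changes themselves differed between the genotypes for 3 of the 10 genes (12.3% of genes higher and 6.09% lower, or 7.29% and 8.83% after median-ratio scaling). The DKO minus WT difference of the changes from day 2 to day 12 in LG was -1.38 ± 0.20 for Hspa5 (adjusted p = 0.00182), -1.65 ± 0.37 for Ddit3 (adjusted p = 0.0121) and -1.92 ± 0.55 for Xbp1 (adjusted p = 0.0324). With the line as a block, 5 passed, Atf3 (adjusted p = 0.0411) and Trib3 (adjusted p = 0.0393) besides these. As labelled 0 passed (0.0335% of genes called), and without W2 0 passed, with Hspa5 at adjusted p = 0.0751. Without K1 5 passed. These comparisons share the W1 library of LG day 12 with the comparison of genotypes on that day.

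In HG, where both WT lines could be followed from day 4 to day 12, 5 of the 10 genes were higher on day 12 (22.2% of genes higher) and 1 was lower (27.0% of genes lower), a comparison chosen after seeing the data. Atf3 stood at 2.99 RPKM in W1 and 3.77 in W2 on day 4 and at 20.96 and 19.5 on day 12, a rise of 2.28 ± 0.43 (adjusted p = 0.000914). Xbp1 stood at 34.8 and 30.8 RPKM on day 4 and at 96.8 and 89.5 on day 12, a rise of 1.48 ± 0.35 (adjusted p = 0.00399). W1 and W2 lay close together in both genes. Hspa5 rose by 0.43 ± 0.13 (adjusted p = 0.0135), Ddit3 by 0.63 ± 0.23 (adjusted p = 0.04) and Psat1 by 0.57 ± 0.22 (adjusted p = 0.0476). Chac1 stood at 7.26 RPKM in W1 and 7.72 in W2 on day 4, and its change was -1.39 ± 0.42 (adjusted p = 0.016). As labelled, 2 passed, Atf3 (8.30% of genes higher) and Chac1 (6.98% of genes lower), and without W1 or without W2 1 passed, Atf3.

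Few of these genes passed the test between glucose levels, where an arm was a lone line on days 8 and 12. On WT day 4 each heading stood over an earlier-listed and a later-listed column. The HG arm held earlier-listed columns only, at 12200000 and 12300000 reads. The LG arm held the later-listed W2 column, at 18900000 reads, and both W1 columns. Glucose and column order can therefore not be fully told apart on that day. Low against high glucose, 1 of the 10 passed in WT on day 12 (0.988% of genes higher and 2.57% lower, or 1.63% and 2.22% after median-ratio scaling), and that was Hspa5. It stood at 615 RPKM in W1 LG against 378 in W1 HG and 376 in W2 HG, a difference of 0.71 ± 0.16 (adjusted p = 0.029). Within W1 the order was the same on day 8, at 466 RPKM in LG and 364 in HG. In WT on days 4 and 8 and in DKO on days 8 and 12, 0 of the 10 passed by limma (12.2%, 3.31%, 1.75% and 2.10% of genes called), with unadjusted p under 0.05 for Psat1 in WT on day 4, Hspa5 in WT on day 8 and Hspa5 in DKO on day 8. On WT day 4 the split of all genes was 4.31% higher and 7.86% lower, or 5.78% and 5.63% after median-ratio scaling, and on WT day 8 0.634% and 2.68%, or 1.18% and 1.89%. As labelled 0 of the 10 passed in these 4 comparisons by limma (0.00%, 0.127%, 0.322% and 0.315% of genes called), and on WT day 12 the single call was Chac1 (0.0469% of genes higher). The LG arm of that call held the library labelled W2 LG day 12, which line markers and Txnip contradicted. The Hspa5 call of WT day 12 was lost without W2 (adjusted p = 0.419) and as labelled (0.05, adjusted p = 0.958).

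The other genes of these pathways were read from 6 lists. Of the ER chaperones and folding enzymes, 17 of 23 were lower in DKO on LG day 12 and 0 higher (13.0% of all genes lower, or 16.7% after median-ratio scaling), with a median of -0.89 against 0.158 over all genes. Dnajb11, a BiP co-chaperone, stood at 80.7 RPKM in W1, 44.3 in K1 and 45.1 in K3 on that day, with a difference of -0.84 ± 0.14 (adjusted p = 0.00105), and Ero1lb, an ER oxidase, and Txndc5, a disulfide isomerase, were also lower, at -1.28 and -1.08. On HG day 12 9 of 23 were lower and 0 higher (median -0.44, 12.0% of all genes lower, or 15.8%), Txndc5 by -1.13 and Ppib, an ER prolyl isomerase, by -0.67 on the log2 scale. On LG day 2 0 of 23 passed, with a median of 0.27. From day 2 to day 12 in LG, 15 of 23 rose in WT and 0 fell (30.0% of all genes higher and 24.4% lower). In DKO 2 rose and 9 fell (33.4% of all genes higher and 17.5% lower, or 26.4% and 25.9% after median-ratio scaling). Of the 2 that rose in DKO, Crispld2 (2.43) is a secreted protein and not a chaperone, and among those that fell were the stress-inducible Creld2 (-1.03) and Sdf2l1 (-1.26). The difference between these day changes passed for 16 of 23 genes, all lower (6.09% of all genes lower, or 8.83%). Without W2 the count of LG day 12 was 8, that of HG day 12 1 and that of the difference 0, while HG day 12 held 0 without W1, and as labelled the 3 counts were 0.

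Among genes of ER-associated degradation and the secretory pathway, 10 of 19 tested were lower in DKO on LG day 12 and 0 higher (median -0.91, 13.0% of all genes lower, or 16.7% after median-ratio scaling). On HG day 12 9 of 19 were lower and 0 higher (median -0.54, 12.0% of all genes lower, or 15.8%). Sel1l, the adaptor of the ER ubiquitin ligase, stood at 53.2 RPKM in W1 LG, 16.6 in K1 LG and 21.7 in K3 LG on day 12, after 11.2 to 14.3 RPKM in all lines on day 2. Its difference on LG day 12 was -1.44 ± 0.16 (adjusted p = 0.000109), and that of its partner ligase Syvn1 was -0.94 ± 0.17 (adjusted p = 0.00184). Sec61a1, the pore of the translocon, had the smallest p (-1.53 ± 0.15, adjusted p = 4.88e-05), but it is on chromosome 6 and was at 77.7 and 79.2 RPKM in WT against 42.8 and 48.9 in DKO on day 2 already. None of the 10 genes is on chromosome 6. From day 2 to day 12 in LG, 15 of 19 rose and 2 fell in WT, and 3 rose and 2 fell in DKO, beside the shares of all genes just given for these days. Without K3 the LG day 12 count was 16, without W1 and without W2 the HG day 12 count was 1 and 2, and as labelled the LG and HG counts were 0 and 1.

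Between glucose levels in WT on day 12, 4 of the 23 ER chaperone genes were higher in LG and 0 lower (0.988% of all genes higher, or 1.63% after median-ratio scaling), with a median of 0.46. They included Sdf2l1, a stress-induced ER protein (1.42, adjusted p = 0.0151), the chaperone Hyou1 (0.96, adjusted p = 0.0316) and Dnajb11 (0.79, adjusted p = 0.00889) by limma. As labelled and without W2 the count was 0, and without K1 or without K3 8 were higher and 1 lower. With the line as a block it was 6 and in the libraries matched on Prkaa2 and Txnip 1. Markers moved in the same comparison: 3 of 10 mesoderm and muscle markers were lower in LG (Actc1 by -3.08, Myh6 by -2.53 and Nkx2-5 by -1.30), and 2 of 8 neural markers were higher. Pecam1, a blood and endothelium marker, was lower in LG as well, by -1.18. The mesoderm and muscle sum was 29.25 RPKM in LG and 116 to 123 in HG, the neural sum 38.7 and 11.75 to 12.6, and the visceral endoderm sum 4947 and 6871 to 9781. Their part in the result was not tested.

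**Figure D3:**
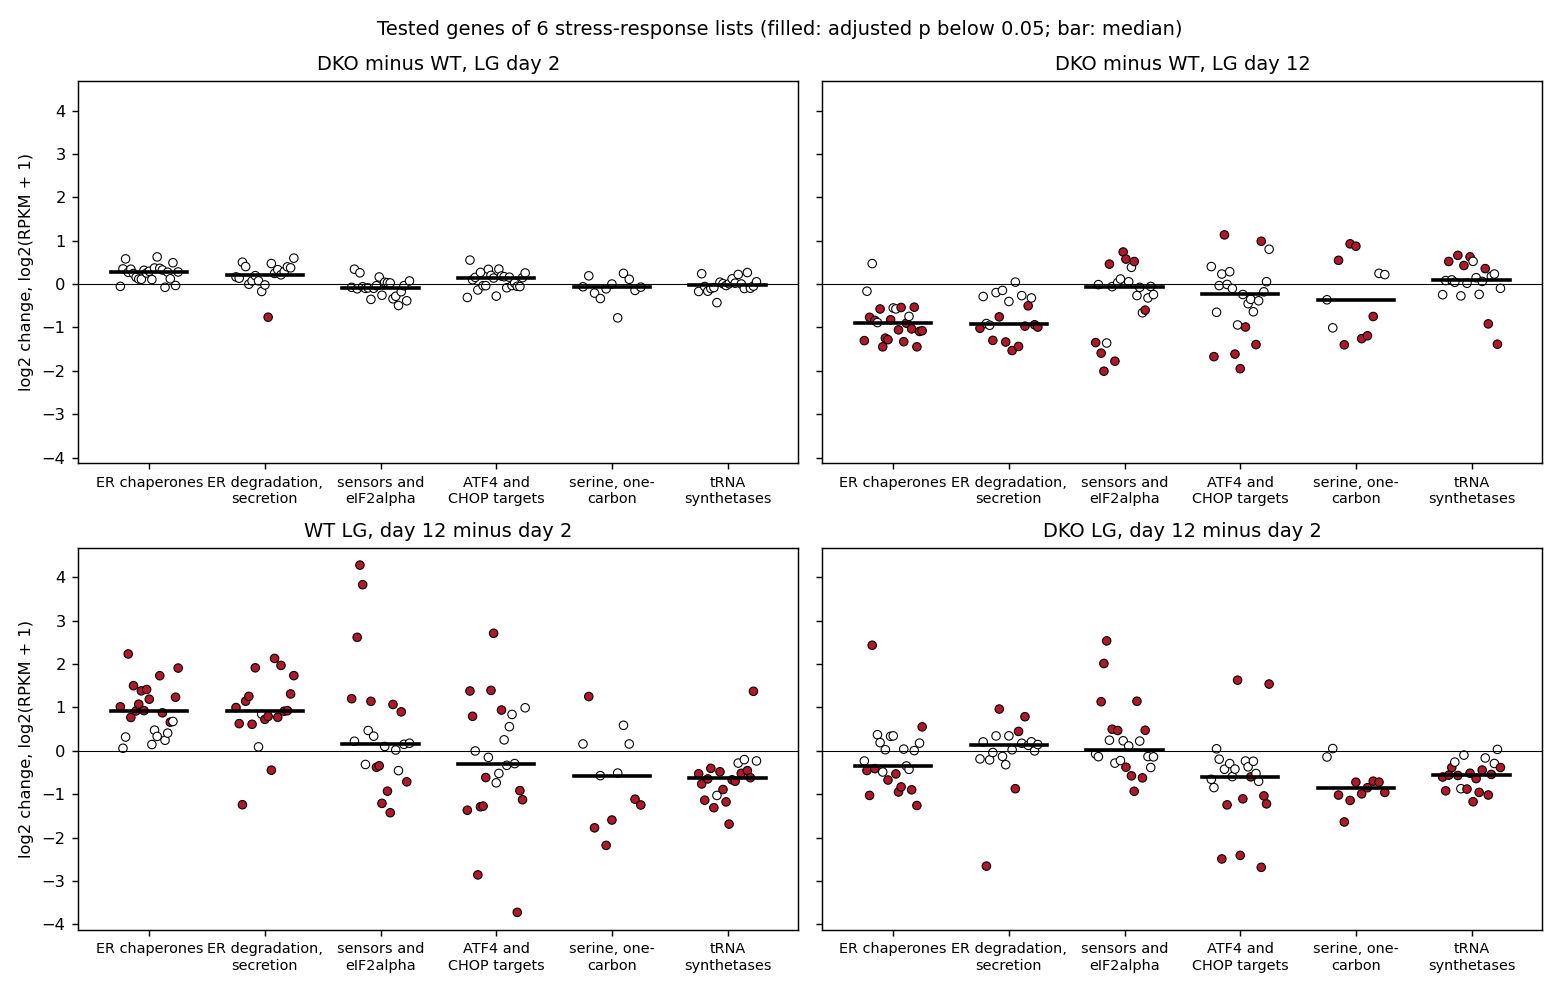
Log2 change of each tested gene of 6 pathway lists in 4 comparisons, with bars at the list medians and filled points for an adjusted p below 0.05. On LG day 12 the ER chaperone and ER degradation lists have medians of -0.89 and -0.91 in DKO minus WT, and on day 2 of 0.27 and 0.21.

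Lists tied to ATF4 and amino acids had calls in both directions between the genotypes on LG day 12. Over all genes, 22.3% were higher and 13.0% lower in DKO on that day, or 16.5% and 16.7% after median-ratio scaling. On HG day 12 20.2% of all genes were higher and 12.0% lower, or 14.3% and 15.8%. Of 23 tested targets of ATF4 and CHOP, 2 were higher and 5 lower in DKO on LG day 12 (median -0.24), and 4 were higher and 2 lower on HG day 12 (median 0.16). Herpud1, an ER membrane protein of the degradation complex, stood at 55.9 RPKM in W1, 16.2 in K1 and 19.04 in K3 on LG day 12 (-1.61 ± 0.38, adjusted p = 0.00699). Ppp1r15a encodes GADD34, which restores eIF2alpha, and stood at 22.8 RPKM in W1, 10.9 in K1 and 11.1 in K3 (-0.99 ± 0.15, adjusted p = 0.000679). Both were at similar levels in all lines on day 2. Of 20 aminoacyl-tRNA synthetases 5 were higher and 2 lower on LG day 12, and 5 higher and 0 lower on HG day 12, and Wars (-1.39 ± 0.22, adjusted p = 0.000945), which charges tryptophan tRNA and is also induced by interferon, was 1 of the lower pair. Along LG days 2 to 12, 15 of the 20 synthetases fell in WT (24.4% of all genes lower) and 14 in DKO (17.5%, or 25.9% after median-ratio scaling). Of 11 genes of serine, glycine, proline and one-carbon synthesis, 3 were higher and 4 lower on LG day 12, and 4 higher and 1 lower on HG day 12, where Psph, the last enzyme of serine synthesis, stood at -1.52 ± 0.32 (adjusted p = 0.00477). Of 22 sensors and regulators of eIF2alpha, 4 were higher and 5 lower on LG day 12, and 2 higher and 5 lower on HG day 12. The sensor Atf6 (-1.35 ± 0.20, adjusted p = 0.000533) and its relative Creb3 (-1.59 ± 0.25, adjusted p = 0.000858) were among the lower genes on LG day 12.

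Markers of cell types moved with the late differences. The summed level of 12 markers of visceral endoderm, a secretory epithelium, was 4947 RPKM in W1 on LG day 12 and 334 to 518 in DKO. On HG day 12 it was 6871 to 9781 RPKM in WT against 1880 in K3. On LG day 8 it was 2309 RPKM in W1 and 190 to 429 in DKO, and on LG day 2 960 to 976 in WT and 445 to 469 in DKO. On LG day 2 only 3 to 4 of the 12 markers reached 1 RPKM and Afp was at 0 in all 4 libraries, so a few genes carried that sum, and 0 of the 12 differed by limma (Apoe, also made by many other cells, stood at -1.07 with an unadjusted p of 0.0118). Its most characteristic gene, Afp, stood at 1527 RPKM in W1 on LG day 12 and at 47.1 in K1 and 25.7 in K3. The 10 pluripotency markers summed to 225 RPKM in W1 and 440 to 595 in DKO on LG day 12, and the 8 fibroblast markers to 1294 and 346 to 520 RPKM. The 10 mesoderm and muscle markers summed to 29.25 RPKM in W1 and 104 to 182 in DKO, the 8 neural markers to 38.7 and 79.0 to 188, and the 7 blood and endothelium markers to 237 and 37.0 to 128. The part of these markers in the late results was not tested, and in bulk RNA fewer cells of a type and less RNA per cell cannot be told apart.

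On LG day 4 the lines of each genotype stood apart in Trib3 and Chac1. Trib3 stood at 24.8 RPKM in K1 and 6.72 in K3, and at 17.1 in W2 against 8.25 and 8.31 in the W1 libraries. Chac1 stood at 20.0 RPKM in K1 and 6.66 in K3, and at 17.4 in W2 against 7.35 and 6.92 in W1. In both genes K1 and W2 were high and K3 and W1 low, across the genotypes. Atf4 was also higher in K1 and W2 than in K3 and W1, at 368 RPKM in K1, 303 in W2, 228 in K3, and 195 and 208 in W1. The spread over the 2 lines was 12.8 RPKM around a mean of 15.8 for Trib3 in DKO (SD, n = 2), nearly as large as the mean. The pluripotency markers summed to 1433 to 1732 RPKM in WT and 1629 to 1785 in DKO on that day.

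Across the 24 libraries the 10 genes fell into more than a single pattern. Spearman's rho, given here as a description over libraries that share lines, days and depth, was 0.917 between Atf4 and Sesn2, 0.841 between Atf4 and Chac1 and 0.82 between Trib3 and Chac1. Ddit3 and Xbp1 had a rho of 0.776, and Atf4 and Xbp1 of 0.032. The genes most like Atf4 among 12887 were Nars (0.933), Eif1 (0.923), Hspa9 (0.92), Nme2 (0.92) and Rpl22l1 (0.918). Those most like Ddit3 were Tex2 (0.889), Morf4l2 (0.886), Psph (0.871), Emc9 (0.864) and Lace1 (0.85). Trib3 was most like Prune (0.872), Chac1 (0.82), Nupr1 (0.82), Parp16 (0.817) and Fam63a (0.786), and Hspa5 most like Uso1 (0.832), Arntl (0.819), Kcnk5 (0.809), Pdia3 (0.804) and Zfp809 (0.796).

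**Figure D4:**
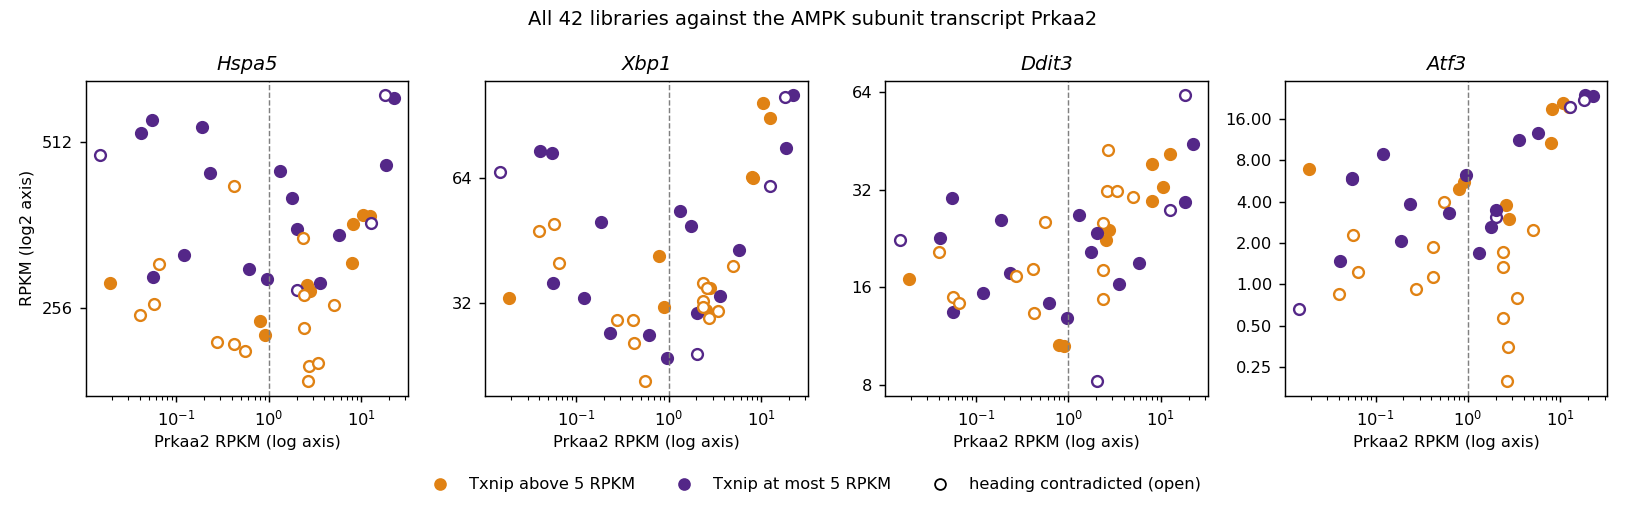
RPKM of Hspa5, Xbp1, Ddit3 and Atf3 (log2 axis) against Prkaa2 RPKM (log axis) in all 42 libraries, with open points for the 18 libraries whose headings were contradicted, colour for Txnip and a dashed line at 1 RPKM. The open point at a Prkaa2 of 18.1 RPKM is the library labelled K3 ESC (623 and 100 RPKM).

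Some of the 18 contradicted libraries held the extreme values of these genes. The library labelled K3 ESC had the highest Ddit3 (62.4 RPKM), Trib3 (26.6 RPKM) and Hspa5 (623 RPKM) of all 42, and Xbp1 of 100 RPKM. It held 18.1 RPKM of Prkaa2, 2.18 of Txnip and 3043 of Afp, with 10.9 RPKM of Pou5f1, a pluripotency factor. Its line-specific transcripts were those of W2, a WT line. Its visceral endoderm markers summed to 8659 RPKM. The library labelled W2 ESC had 12.6 RPKM of Prkaa2, 31.2 of Pou5f1, 240 of Afp, 19.6 of Atf3 and 61.3 of Xbp1. The library labelled W1 ESC had the lowest Ddit3, 8.22 RPKM, and the lowest Psat1, 83.9 RPKM. The 18 libraries entered the as-labelled fit, and 4 of them, whose headings matched on Prkaa2 and Txnip but not on line, also the fit of the 28 libraries matched on those genes.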

How the data were processed

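A table of 24225 genes by 42 libraries was used, whose RPKM values (reads scaled by transcript length and by mapped reads) the authors deposited, per the file headers together with transcript positions on mm10. Among the tools listed in the submitters' processing notes are STAR 2.4.0k, HOMER and edgeR 3.6.8, with no role stated. The kit did not mark strand, per the labels' protocols. Because RPKM is relative, a strong rise of some transcripts lowers the rest. Depth was estimated from the steps of low values, 10500000 to 25500000 reads per library.

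Label-matched libraries were those whose heading matched the line by Ddx3y (thresholds of 2, 5 and 10 RPKM) and Meg3 (5 RPKM) and the glucose level by Txnip (5 RPKM). The day of the heading was not checked. Columns that shared a heading (6 headings of day 4) were averaged on the log scale. The limma package (3.58.1, R 4.3.3) was fitted to log2(RPKM + 1), a scale that understates the changes of low genes, with group means and a mean-variance trend. Tested were 14670 genes that reached 1 RPKM in 2 or more values (23 values, 14 groups, 9 residual degrees of freedom), with Benjamini-Hochberg adjustment over all of them and a threshold of 0.05. Where an arm was a lone line, its variance was taken from the other groups. Values of a line over days were treated as independent, so p-values rest on the spread among these libraries, which may be technical. Same-named lines are the same cell line, so the names pair the samples across days and glucose levels, and the consensus correlation within lines was 0.195.

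The 10 genes, the lists and the tests were chosen with earlier results of these data known. The comparisons of glucose in WT on day 4, of the glucose changes between genotypes and of days 12 and 4 in WT HG were added after seeing the data. Of each list, the 3 tested genes with the smallest adjusted p were eligible to be named, and of Atf4, Ddit3, Trib3 and Hspa5 the 5 genes of most similar pattern. Alternatives were all libraries as labelled, libraries matched on Prkaa2 and Txnip (28), a pseudocount of 0.1, no filter, median-ratio scaling, the line as a block and leaving out each line. Scripts were tested on simulated data. Python 3.11.15 was used for tables and figures.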

Additional observations from a re-analysis of the deposited data

Results flagged for a closer look

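The changes from day 2 to day 12 in low glucose differed between DKO and WT by the limma test of the difference itself for 3 of the 10 genes (12.3% of all genes higher and 6.09% lower). As labelled 0 of the 10 passed, and leaving out each line gave 0 to 5, with 0 without W2. The DKO minus WT difference of the log2 changes was -1.65 for Ddit3, -1.38 for Hspa5 and -1.92 for Xbp1. For Hspa5 the 2 DKO lines were at 532 and 546 RPKM on day 2 and at 291 and 301 RPKM on day 12, while W1 went from 406 to 615 RPKM. The WT arm on day 12 was W1 alone, and the summed visceral endoderm markers were at 4947 RPKM in it against 334 to 518 RPKM in DKO. The part of these markers was not tested. A test for a library far from its group, run for the 10 genes in each labelled group of at least 4 libraries (20 tests), marked 0. Only the groups labelled WT HG day 4 and WT LG day 4 were that large, and both held contradicted libraries. The test did not examine the libraries of days 2 and 12 compared here.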

How the results depend on the processing

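For the 10 genes, 35 results passed the threshold. All 35 kept direction and call with a pseudocount of 0.1 and with the replicate block on line, 32 with median-ratio scaling, 28 with no filter and 22 in the libraries matched on Prkaa2 and Txnip. As labelled, 6 did, 28 lost the call and 1 reversed, Hspa5 from day 2 to day 12 in WT LG (-0.13, adjusted p = 0.862). As labelled, the counts of genes called were 0 on LG day 4, 0 on LG day 8, 2 on LG day 12, 0 on HG day 8, 1 on HG day 12, 0 and 3 from day 2 to day 12 in WT and DKO, 0 for the difference of those changes, 1 for glucose in WT on day 12 (Chac1 in place of Hspa5), 1 for the difference of the glucose changes and 2 from day 4 to day 12 in WT HG. Matched on Prkaa2 and Txnip they were 0 on LG day 4, 0 on LG day 8, 1 on HG day 8, 5 on HG day 12, 1 for the difference of the day changes and 0 for glucose in WT on day 12. With no filter and with median-ratio scaling they were 0 on LG day 4 and 1 on HG day 8. The replicate block gave 5 in place of 3 for the difference of the day changes and moved no other count by over 1.5 times. As labelled, the WT LG arms of days 8 and 12 also held the libraries labelled W2 LG day 8 and W2 LG day 12. These had 0.416 and 0.04 RPKM of Prkaa2 and 65.2 and 190 of Txnip. Matched on Prkaa2 and Txnip, the DKO HG day 12 arm also held the library labelled K1 HG day 12. It had the line-specific transcripts of K3, with 381 RPKM of Pou5f1 and 0 of Afp, against 67.2 and 193 in K3 HG day 12. The cause of the shifts in these counts was not tested.

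Leaving out each line gave 0 to 2 calls on LG day 4, 0 to 4 on LG day 8, 3 to 6 on LG day 12, 0 to 4 on HG day 8, 0 to 5 on HG day 12, 1 to 4 for days in WT LG, 6 to 8 in DKO LG, 0 to 5 for their difference, 0 to 1 for glucose in WT on day 12, 1 to 6 in WT HG and 0 in all other comparisons. Without W1 or without K3, comparisons that rest on that line alone could not be made. Of 96 list genes named or eligible, 6 reversed as labelled: on LG day 12 Slc7a3 (-0.081) and Kars (-0.083), in the difference of day changes Kars (-0.049), Amt (-0.14) and Creb3 (0.020), and for glucose in WT on day 12 Sel1l (-0.26).

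Depth limits the low genes most, and Atf3 at its lowest, 0.196 RPKM, rests on a few reads. With 9 residual degrees of freedom and arms of 1 line, values short of the threshold do not show that the genotypes are alike.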

Other observations

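The single label-matched library with an ESC heading, K1, had 50.02 RPKM of Sesn2 and 19.1 of Trib3, with 284 of Hspa5, 32.9 of Xbp1 and 6.99 of Atf3. It has no label-matched WT partner, and the matching did not check the day. Its Pou5f1 was 311 RPKM and its Afp 1.73 RPKM. The LG day 2 libraries had 546 to 594 RPKM of Pou5f1 and 0 of Afp. The label-matched WT HG day 4 libraries had 287 and 283 of Pou5f1 and 9.49 and 2.49 of Afp. Its values may therefore not be those of ESC.

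In the libraries with headings of HG day 2 and in the later-listed HG day 4 libraries, all contradicted by line markers or Txnip, Atf3 was low. It stood at 0.196 RPKM in the later-listed W1 library of HG day 4, the lowest of the 42, at 0.924 in W2 and at 0.796 in K1. The earlier-listed W1 and W2 libraries of the same heading, which were label-matched, had 2.99 and 3.77 RPKM.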
